A study of Homo sapiens with 16 samples.

Results

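Transcripts of 9 plasma membrane amino acid transporter genes were followed in HCT116, a long-established line of human colorectal carcinoma cells. The genes *SLC7A11*, *SLC7A5*, *SLC3A2*, *SLC1A4*, *SLC1A5*, *SLC7A1*, *SLC6A9*, *SLC38A1* and *SLC38A2* were chosen by name, and all 9 were found among the 33937 genes of the count matrix. These genes and the lists of other genes below were chosen with earlier results of these data known. The shares over all genes set beside their counts are therefore a description and not a test of the lists. The cells carried a short hairpin RNA (shRNA), either a scrambled control (SCR) or one directed against *NAA40*, the enzyme that acetylates the N-termini of histones H4 and H2A, and doxycycline (dox) is the agent meant to switch the shRNA on. Both cell lines were kept for 96 h in medium that held 1 μg/ml dox, written (+dox), or none, written (−dox), and total RNA of 4 independent samples was sequenced for each of the 4 groups. Each shRNA is a single stable cell line in these data, so a difference between SCR and NAA40-KD cannot be told apart from a difference between the 2 lines.

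The targeted gene was examined first. *NAA40* (ENSG00000110583, chr11:63938959-63957328, plus strand) stood at 34.4, 25.9, 29 and 28.2 CPM (read counts scaled to a common library size with TMM factors) in replicates 1 to 4 of SCR (−dox) and at 12.6, 11.5, 9.25 and 13.8 CPM in NAA40-KD (−dox). With dox, it stood at 26, 28.3, 26.1 and 28.8 CPM in SCR (+dox) and at 31.4, 29.2, 28.6 and 31.8 CPM in NAA40-KD (+dox). *NAA40* was thus low in the libraries labelled without dox and near the level of SCR in those labelled with it, which goes against the labels, so every group name, "without dox" and "with dox" included, is that of the label.

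Total counts ran from 11065606 to 13855486 per library. One library stood apart, NAA40-KD (−dox) replicate 4, whose genes deviated from their group means by 0.627 (root mean square, log2 CPM), against 0.120 to 0.259 in the other 15. Its departure from replicates 1 to 3 moved with the GC content of the transcript, with a median of −1.20 on the log2 scale in the poorest of 5 equal GC classes of genes and 1.11 in the richest. Median transcript length fell over the same classes, from 4449 to 2773 bases, and GC content and length were not separated. Some values that rest on this library are given with and without it, and the others include it unless stated. Of the 7 epithelial markers examined, *EPCAM*, *CDH1*, *KRT8*, *KRT18*, *KRT19* and *CDX2* were present in every library (*CDX2* at 16.8 CPM or more) and *VIL1* was at 0 to 3 counts. *PTPRC* and *PECAM1*, defining markers of leukocytes and endothelium, reached at most 4 counts in any library, *COL3A1* at most 5 and *PDGFRB* at most 14. *COL1A1* was the exception among the 5 markers of other cells, at 56.6 to 92 CPM in SCR (−dox), 68.4 to 93.4 CPM in SCR (+dox), 66.9 to 195 CPM in NAA40-KD (−dox) and 66.9 to 77 CPM in NAA40-KD (+dox).

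Amino acids are polar and enter cells through carriers of the solute carrier (SLC) families, each of which takes a group of related amino acids. Some of these carriers couple uptake to the sodium gradient, and others are exchangers that let one amino acid in for another that leaves. When amino acids run short or a translation initiation factor is phosphorylated by stress kinases, cells favour translation of the transcription factor *ATF4*, which is known to raise transcription of many amino acid transporters and of enzymes that make serine, asparagine and proline. The gene for the cystine carrier is in addition a textbook target of NRF2, a factor that responds to oxidative stress. Proliferating tumour cells are known to depend on glutamine, serine and cystine supply, and several of these carriers are abundant in colorectal carcinoma.

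Promoters of 8 of the 9 members had an entry among the RefSeq promoter windows (GRCh38.p14), 14 windows in all, and *SLC7A11* had none. The 250 bases before each transcript start were searched on both strands for TGATGNAA, the *ATF4* response element, TGACNNNGC, the antioxidant response element that NRF2 binds, and CACGTG, the E-box, none of which lies within another. The first was present in 1 member window, against 3.14% of all 35116 windows, the second in 3 against 10.91% and the third in 2 against 6.34%. The 4 stretches printed here show such matches, in capitals, on the strand of the gene: the E-box of *SLC7A5* at chr16:87869605-87869664 (minus), the antioxidant response elements of *SLC7A1* at chr13:29595740-29595798 (minus) and *SLC3A2* at chr11:62881652-62881680 (plus), and the *ATF4* response element of *SLC1A5* at chr19:46784893-46784922 (minus). Those of *SLC3A2* and *SLC1A5* lie before transcript starts inside the gene and touch annotated exons.
SLC7A5: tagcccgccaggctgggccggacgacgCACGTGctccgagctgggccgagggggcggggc
SLC7A1: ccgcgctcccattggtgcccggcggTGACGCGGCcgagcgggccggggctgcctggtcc
SLC3A2: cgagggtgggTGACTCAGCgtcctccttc
SLC1A5: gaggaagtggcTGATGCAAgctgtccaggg
A match describes letters only, and its absence elsewhere says only that these letters are not in the window. *SLC7A5* and *SLC3A2*, whose levels moved together, each held a match, but to different motifs, and *SLC1A4*, *SLC6A9*, *SLC38A1* and *SLC38A2* held none of the 3.

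Levels per kilobase of exon separated the 9 transcripts into tiers. In SCR (−dox), *SLC38A2* and *SLC7A5* were the most abundant, at 267 ± 25.6 and 261 ± 59.1 CPM per kilobase (mean ± SD, n = 4), and their libraries overlapped. *SLC3A2* (76.6 ± 16.2), *SLC1A5* (51.1 ± 8.90) and *SLC38A1* (45.2 ± 2.42) followed, each overlapping its neighbour, then *SLC7A1* at 33 ± 2.83 and *SLC7A11* at 15 ± 2.48 CPM per kilobase, which overlapped neither each other nor their neighbours. In SCR (+dox), *SLC7A5* (307 ± 41.4) stood above *SLC38A2* (279.7 ± 34.7), again overlapping. *SLC1A4* (2.76 ± 0.787) and *SLC6A9* (2.36 ± 0.468) closed the order of SCR (−dox) and overlapped. The libraries labelled NAA40-KD (+dox) kept 2 transcripts at the top, *SLC38A2* at 176 ± 17.1 and *SLC7A5* at 157 ± 15.3 CPM per kilobase. In both NAA40-KD groups *SLC6A9* stood above *SLC1A4* with no overlap. The values were 1.86 ± 0.0899 and 1.27 ± 0.0939 with dox, and 1.62 ± 0.605 and 0.846 ± 0.273 without. *SLC7A11* stood at 6.94 ± 0.984 CPM per kilobase in NAA40-KD (+dox) and at 3.05 ± 1.11 in NAA40-KD (−dox), where it overlapped *SLC6A9*. That overlap came only from replicate 4, with *SLC7A11* at 1.51 and *SLC6A9* at 2.53 CPM per kilobase.

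**Figure D1:**
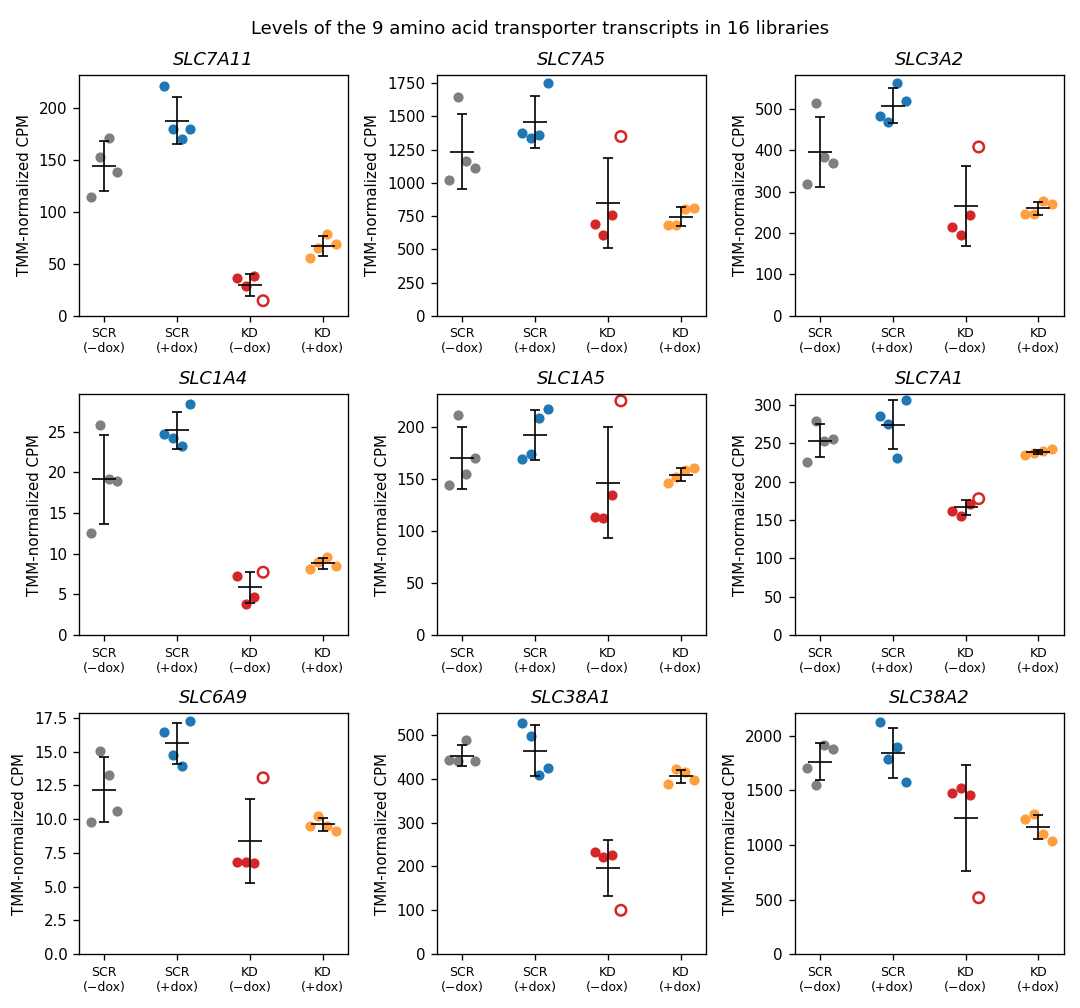
TMM-normalized CPM (vertical axis, from 0) of each of the 9 transporter transcripts in the 4 libraries of each group (horizontal axis), with the group mean and SD as a black bar, and NAA40-KD (−dox) replicate 4 as an open circle. *SLC7A11* and *SLC1A4* lie lower in every NAA40-KD library than in every SCR library, whereas the open circle sits far above its group for *SLC7A5*, *SLC3A2*, *SLC1A5* and *SLC6A9* and far below it for *SLC38A1* and *SLC38A2*.

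Where *NAA40* itself was low, in NAA40-KD (−dox) by label, 4 of the 9 transcripts fell against SCR (−dox) and 0 rose, at an adjusted p under 0.05 (quasi-likelihood test of edgeR, Benjamini-Hochberg adjustment over all 13903 genes tested). They were *SLC7A11*, *SLC1A4*, *SLC38A1* and *SLC7A1*, with log2 fold changes of −2.29 to −0.60. Over all genes tested, 6.42% passed and 3.54% passed as lower. With the additional requirement of an absolute log2 fold change above 1, 3 of the 9 passed (*SLC7A11*, *SLC1A4* and *SLC38A1*), against 3.47% of all genes. All 9 log2 fold changes were negative, with a median of −0.57 against 0.04 over all genes, and for 5 of the 9 (*SLC38A2* besides those that passed) the groups did not overlap, against 11.9% of all genes that lay apart in this direction. In these bulk RNA samples, fewer cells that hold a transcript and less of it per cell cannot be told apart.

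This count moved with single libraries. When NAA40-KD (−dox) replicate 4 was left out, 8 of the 9 passed as lower (all but *SLC38A2*), while 36.5% of all genes passed and 19.4% passed as lower. The median log2 fold change was then −0.86, against −0.0059 over all genes. In that fit 9 of 9 lay below SCR (−dox) with no overlap, which 3 libraries reach more readily than 4. The share of all genes that lay apart there was not computed. *SLC7A11* and *SLC1A4* were the only 2 members that passed when any 1 library of SCR (−dox), or NAA40-KD (−dox) replicate 2, was left out. Of all genes, 1.64% to 2.18% passed in these fits, against 6.42% with all libraries. Without NAA40-KD (−dox) replicate 1 or replicate 3, *SLC38A1* passed as well, which made 3, where 2.59% and 3.18% of all genes passed.

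Where *NAA40* was near the level of SCR, in NAA40-KD (+dox) by label, 7 of the 9 transcripts were lower than in SCR (+dox) and 0 were higher (same test, 13869 genes tested). The transcripts that fell were *SLC1A4*, *SLC7A11*, *SLC3A2*, *SLC7A5*, *SLC6A9*, *SLC38A2* and *SLC1A5*, by log2 fold changes from −1.51 to −0.32. Of all genes, 24.5% passed here and 13.7% passed as lower. A fold change beyond 1 on the log2 scale was reached by 2 of the 9, *SLC1A4* and *SLC7A11*, against 2.15% of all genes. The median over the 9 was −0.70, against −0.0042 over all genes, and the 7 that passed were also the 7 whose libraries did not overlap, where 13.9% of all genes lay apart in this direction. *SLC1A5* no longer passed without NAA40-KD (+dox) replicate 1 or replicate 2, which left 6, where 17.4% and 17.2% of all genes passed. All 9 passed without SCR (+dox) replicate 3, where 24.1% of all genes did. In the fit over all 16 libraries, whose spread takes in NAA40-KD (−dox) replicate 4, *SLC1A5* and *SLC38A2* did not pass, which left 5, where 6.71% of all genes passed.

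**Figure D2:**
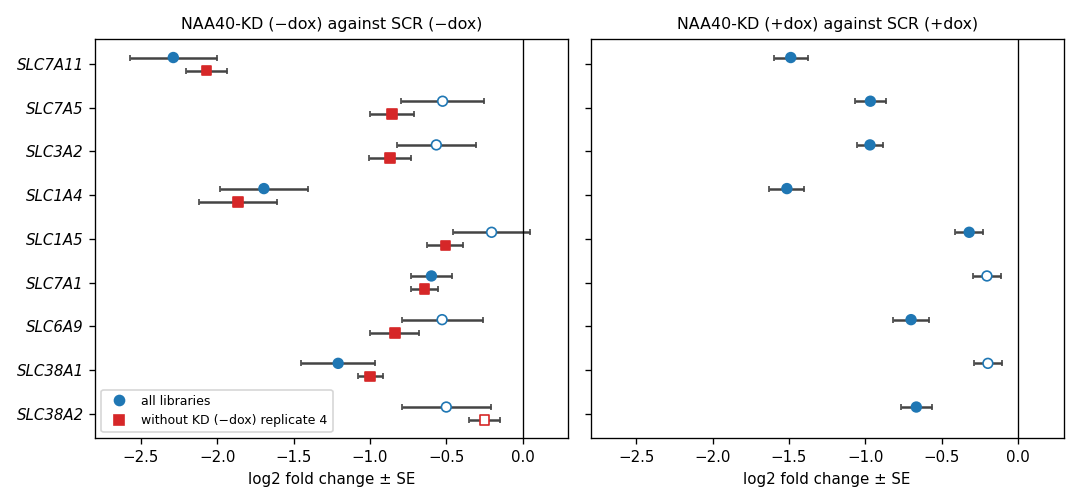
Log2 fold changes (horizontal axis, ± SE) of the 9 transcripts between the libraries labelled NAA40-KD and SCR, without dox on the left and with dox on the right. Circles are fits on all 8 libraries and squares the fit without NAA40-KD (−dox) replicate 4, filled where the adjusted p was under 0.05. All points lie below 0, and without that library *SLC38A2* is the one open square on the left.

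*SLC7A11* (ENSG00000151012, chr4:138164097-138242349, minus strand on GRCh38, GENCODE release 29) encodes xCT, the light chain that exchanges extracellular cystine for intracellular glutamate and so feeds cysteine into glutathione synthesis. It stood at 114, 153, 171 and 139 CPM in replicates 1 to 4 of SCR (−dox) and at 36.4, 28.9, 37.9 and 14.5 CPM in NAA40-KD (−dox). With dox, the levels were 222, 180.0, 171 and 179 CPM in SCR (+dox) and 55.4, 65.2, 78.4 and 68.7 CPM in NAA40-KD (+dox). Every NAA40-KD library lay below every SCR library, and every NAA40-KD (−dox) library lay below every NAA40-KD (+dox) library. *SLC7A11* had the largest log2 fold change of the 9 without dox, −2.29 ± 0.28 (SE, edgeR adjusted p = 0.00373), and it was −1.49 ± 0.11 with dox (edgeR adjusted p = 3.9e-08). Without NAA40-KD (−dox) replicate 4, which had its lowest level, the first value was −2.07 ± 0.14. Its exons overlap those of SLC7A11-AS1 on the opposite strand, and since whether reads were counted by strand is not given in the sources used here, reads of the 2 genes may not have been separated.

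*SLC7A5* (ENSG00000103257, chr16:87830023-87869488, minus strand) encodes LAT1, the light chain that exchanges leucine and other large neutral amino acids. Its levels were 1019.6, 1648, 1162 and 1115 CPM in SCR (−dox) and 690.0, 605, 759 and 1349 CPM in NAA40-KD (−dox), where replicate 4 reached the range of SCR and the other 3 libraries did not. Those with dox were 1376, 1339, 1364 and 1752 CPM in SCR (+dox) and 680.3, 687, 806 and 813 CPM in NAA40-KD (+dox), with no overlap. The log2 fold change with dox was −0.97 ± 0.10 (edgeR adjusted p = 3.3e-06). Without dox it was −0.52 ± 0.27 (edgeR adjusted p = 0.277), which did not pass, and it was −0.86 ± 0.15 and passed without replicate 4. An antisense RNA overlaps its exons.

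*SLC3A2* (ENSG00000168003, chr11:62856102-62888875, plus strand) encodes the heavy chain that carries both xCT and LAT1 to the cell surface. It stood at 318, 515, 383 and 371 CPM in SCR (−dox) and at 215, 196, 243 and 408 CPM in NAA40-KD (−dox). In the presence of dox it stood at 483, 468, 563 and 519 CPM in SCR (+dox) and at 246, 246, 277 and 269 CPM in NAA40-KD (+dox). As for *SLC7A5*, the groups with dox did not overlap and NAA40-KD (−dox) replicate 4 lay among the SCR libraries. The log2 fold change was −0.97 ± 0.09 with dox (edgeR adjusted p = 4.3e-07) and −0.57 ± 0.26 without it (edgeR adjusted p = 0.22), and the latter was −0.87 ± 0.14 and passed when replicate 4 was left out. No annotated gene overlaps *SLC3A2*.

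The heavy chain was compared with each light chain by their log2 ratio. The log2 ratio of *SLC7A5* to *SLC3A2* was 1.58 ± 0.12 (SD over 16 libraries), with group means from 1.51 to 1.67. The log2 ratio of *SLC7A11* to *SLC3A2* was −1.45 ± 0.24 in SCR (−dox) and −1.44 ± 0.25 in SCR (+dox) (SD, n = 4). It was −1.96 ± 0.14 in NAA40-KD (+dox), with all 4 libraries below the SCR libraries. In NAA40-KD (−dox) it was −3.20 ± 1.07, with replicate 4 at −4.80, and −2.66 ± 0.10 (SD, n = 3) without that library, still below every library of the other groups. These ratios are of CPM and were compared between groups only, as a description with no test.

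**Figure D3:**
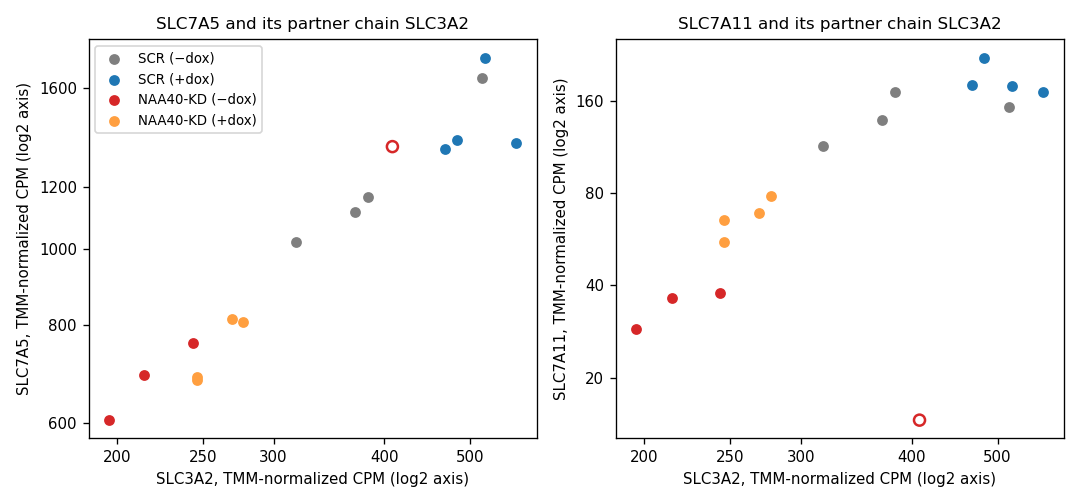
TMM-normalized CPM of *SLC7A5* (left) and *SLC7A11* (right) against that of *SLC3A2*, on log2 axes, for the 16 libraries coloured by group, with NAA40-KD (−dox) replicate 4 as an open circle. *SLC7A5* and *SLC3A2* lie along one line through all groups, replicate 4 included, whereas for *SLC7A11* the libraries labelled NAA40-KD lie lower and replicate 4 lies far below the rest at 14.5 CPM.

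*SLC1A4* (ENSG00000115902, chr2:64988477-65023865, plus strand) and *SLC1A5* (ENSG00000105281, chr19:46774883-46788594, minus strand) encode ASCT1 and ASCT2, sodium-dependent exchangers of small neutral amino acids, of which ASCT2 also carries glutamine. *SLC1A4* stood at 12.5, 25.9, 19.2 and 19 CPM in SCR (−dox) and 7.23, 3.87, 4.66 and 7.72 CPM in NAA40-KD (−dox), with 51 to 97 counts per library in the latter. Its levels with dox were 24.7, 24.3, 23.2 and 28.4 CPM in SCR (+dox) and 8.16, 8.93, 9.65 and 8.45 CPM in NAA40-KD (+dox). No NAA40-KD library reached the lowest SCR library. The log2 fold changes, −1.70 ± 0.29 without dox (edgeR adjusted p = 0.0119) and −1.51 ± 0.11 with dox (edgeR adjusted p = 5.3e-08), made it the only member besides *SLC7A11* that passed in both comparisons, which share no library. Without NAA40-KD (−dox) replicate 4 the first value was −1.87 ± 0.25.

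*SLC1A5* changed less. It stood at 144, 212, 155 and 171 CPM in SCR (−dox) and 114, 113, 134 and 225 CPM in NAA40-KD (−dox), whose replicate 4 was the highest library of all 16. With dox it stood at 169, 174, 209 and 218 CPM in SCR (+dox) and 146, 152, 159 and 161 CPM in NAA40-KD (+dox), close together but without overlap. The log2 fold change with dox was −0.32 ± 0.09 (edgeR adjusted p = 0.0186), and the value without dox was −0.20 ± 0.25 (edgeR adjusted p = 0.669), or −0.51 ± 0.12 without replicate 4, which passed. An antisense RNA on the opposite strand overlaps its exons, so its counts are uncertain.

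*SLC7A1* (ENSG00000139514, chr13:29509410-29595688, minus strand) encodes CAT1, which carries arginine and lysine. It stood at 226, 279, 253 and 255 CPM in SCR (−dox) and 162, 155, 171 and 178 CPM in NAA40-KD (−dox), and here replicate 4 lay close to its fellows. With dox the levels were 286, 275, 231 and 307 CPM in SCR (+dox) and 235, 237, 240.1 and 242 CPM in NAA40-KD (+dox), which overlapped through SCR (+dox) replicate 3. *SLC7A1* fell without dox, with a log2 fold change of −0.60 ± 0.13 (edgeR adjusted p = 0.0305), or −0.64 ± 0.09 without replicate 4, and with groups apart. Its log2 fold change with dox was −0.20 ± 0.09 (edgeR adjusted p = 0.108), and it passed only when SCR (+dox) replicate 3 was left out, at −0.28.

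*SLC6A9* (ENSG00000196517, chr1:43991500-44031467, minus strand) encodes the glycine transporter GLYT1 and was, with *SLC1A4*, the least abundant of the 9. Its levels were 9.77, 15, 13.3 and 10.6 CPM in SCR (−dox) and 6.85, 6.83, 6.77 and 13.1 CPM in NAA40-KD (−dox), the first 3 libraries of which were nearly level and lower than SCR. In SCR (+dox) they were 16.5, 14.8, 13.9 and 17.3 CPM and in NAA40-KD (+dox) 9.53, 10.3, 9.51 and 9.16 CPM, with no overlap. The log2 fold change was −0.70 ± 0.12 with dox (edgeR adjusted p = 3.5e-04) and −0.53 ± 0.26 without dox (edgeR adjusted p = 0.264), the second being −0.84 ± 0.16 and past the threshold without replicate 4. *CCDC24* on the opposite strand overlaps its exons.

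*SLC38A1* (ENSG00000111371, chr12:46183063-46270017, minus strand) and *SLC38A2* (ENSG00000134294, chr12:46358189-46372867, minus strand), neighbours on the same chromosome arm, encode SNAT1 and SNAT2, which bring in glutamine, alanine and other small neutral amino acids together with sodium. *SLC38A1* stood at 442, 440.0, 489 and 439.6 CPM in SCR (−dox) and 233, 221, 227 and 100.1 CPM in NAA40-KD (−dox). With dox it stood at 528, 498, 407 and 423 CPM in SCR (+dox) and 387, 421, 415 and 397 CPM in NAA40-KD (+dox). The NAA40-KD (−dox) libraries were therefore apart from all the others, while those with dox overlapped SCR (+dox). The log2 fold change was −1.21 ± 0.24 without dox (edgeR adjusted p = 0.0215), or −1.0 ± 0.08 without replicate 4, and −0.20 ± 0.09 with dox (edgeR adjusted p = 0.13).

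*SLC38A2*, the transporter known to be induced when cells are starved of amino acids, passed in the other comparison. It stood at 1702, 1549, 1918 and 1875 CPM in SCR (−dox) and 1475, 1519.8, 1462 and 517 CPM in NAA40-KD (−dox), lower in all 4 libraries but by little in 3 of them. With dox, 2126, 1788, 1896 and 1575 CPM in SCR (+dox) stood against 1234, 1281, 1104 and 1038 CPM in NAA40-KD (+dox), with no overlap. It fell with dox, at −0.67 ± 0.10 (edgeR adjusted p = 1.3e-04). Without dox its value of −0.50 ± 0.29 did not pass (edgeR adjusted p = 0.335) and shrank to −0.25 ± 0.10, still not passing, without replicate 4. The log2 ratio of *SLC38A1* to *SLC38A2* CPM was −1.96 in SCR (−dox), −1.99 in SCR (+dox), −2.62 in NAA40-KD (−dox) (−2.71 without replicate 4) and −1.52 in NAA40-KD (+dox).

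**Figure D4:**
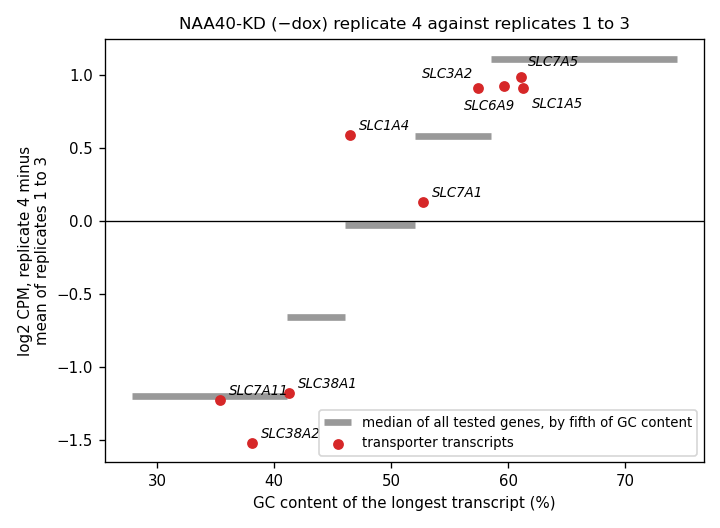
Log2 CPM of NAA40-KD (−dox) replicate 4 minus the mean of replicates 1 to 3 (vertical axis) against the GC content of the longest transcript in percent (horizontal axis), for the 9 transporters (points) and as the median of all tested genes in each of 5 classes of GC content (grey bars). The 3 transcripts poorest in GC, *SLC7A11*, *SLC38A2* and *SLC38A1*, lie below −1 and the 4 richest lie near 0.9 to 1.0.

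In the library that stood apart, the members poor in GC lay below and those rich in GC above the other replicates. Replicate 4 differed from the mean of replicates 1 to 3 of NAA40-KD (−dox) by −1.22 on the log2 scale for *SLC7A11* (GC content 35.4%), −1.52 for *SLC38A2* (38.1%) and −1.18 for *SLC38A1* (41.3%). It differed by 0.91 for *SLC3A2* (57.4%), 0.92 for *SLC6A9* (59.6%), 0.98 for *SLC7A5* (61.1%) and 0.91 for *SLC1A5* (61.3%), with *SLC1A4* (46.5%) at 0.59 and *SLC7A1* (52.7%) at 0.13 in between. The medians of all tested genes, from the class poorest in GC to the richest, were −1.20, −0.66, −0.03, 0.58 and 1.11. How far GC content or transcript length sets these departures was not tested for single genes. With an offset for GC content fitted to each library, an alternative added after the data had been seen, all 9 members passed as lower without dox, where 36.0% of all genes passed, and 8 with dox, where 31.7% did.

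Within the line that carries the *NAA40* shRNA, the label (+dox) went with higher levels of 3 transcripts than (−dox) and with lower levels of 0 (13844 genes tested), where 4.71% of all genes passed as higher. The log2 fold change was 1.18 ± 0.28 for *SLC7A11* (edgeR adjusted p = 0.0293), 1.05 ± 0.24 for *SLC38A1* (edgeR adjusted p = 0.0285) and 0.52 ± 0.11 for *SLC7A1* (edgeR adjusted p = 0.0193). The median over the 9 was 0.20, against −0.04 over all genes. With replicate 4 of NAA40-KD (−dox) left out, 8 of 9 passed, as did 52.4% of all genes: 7 were higher with dox, and *SLC38A2* was lower (−0.35 ± 0.06, all 4 libraries with dox below the 3 without). *SLC7A5*, at 0.12 ± 0.08, did not pass. In that fit the value was 0.96 for *SLC7A11*, 0.83 for *SLC38A1* and 0.55 for *SLC7A1*. Leaving out any 1 library of NAA40-KD (+dox), or NAA40-KD (−dox) replicate 2, left 0 that passed, and leaving out NAA40-KD (−dox) replicate 1 or replicate 3 left 2. Of all genes, 10.2% passed with all libraries and 2.77% to 3.65% without 1 library of NAA40-KD (+dox). Without NAA40-KD (−dox) replicate 1, 2 or 3 the shares were 5.78%, 5.87% and 6.66%. The NAA40-KD libraries of this comparison are those of the comparisons with SCR.

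In SCR, 0 of the 9 transcripts passed between (+dox) and (−dox), as did 0.0% of the 13882 genes tested by edgeR, and 0 genes passed with DESeq2 or limma-voom. At an unadjusted p under 0.05, 4 of the 9 were higher with dox (*SLC7A11*, *SLC3A2*, *SLC1A4* and *SLC6A9*), against 1.95% of all genes in either direction. All 9 log2 fold changes were positive, from 0.03 for *SLC38A1* to 0.39 for *SLC1A4*, with a median of 0.24 against −0.0016 over all genes. SCR (−dox) replicate 1 had the lowest level of its group for 7 of the 9 and replicate 2 the highest for 6. When single libraries were left out, 2 members turned negative without SCR (+dox) replicate 1 and 1 without SCR (+dox) replicate 2. In each other such fit 0 were negative. The medians of these fits ran from 0.14 to 0.40. No transcript's SCR groups lay apart.

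Whether the difference between lines depended on the dox label was tested as an interaction over all 16 libraries (14392 genes). *SLC38A1* passed, with 1.02 ± 0.27 (edgeR adjusted p = 0.0259), the only 1 of the 9, where 4.31% of all genes passed in this direction. *SLC7A11* at 0.80 ± 0.31 (edgeR adjusted p = 0.117) and *SLC7A1* at 0.40 ± 0.15 (edgeR adjusted p = 0.102) did not. Without NAA40-KD (−dox) replicate 4, 4 passed, as did 24.2% of all genes: *SLC38A1* (0.79 ± 0.12), *SLC7A11* (0.57 ± 0.18) and *SLC7A1* (0.43 ± 0.13) with a smaller fall in the dox-treated libraries, and *SLC38A2* (−0.42 ± 0.14) with a larger one. *SLC38A1* did not pass, and 0 members did, without SCR (+dox) replicate 3 or 4, SCR (−dox) replicate 3, or NAA40-KD (+dox) replicate 2 or 3. In these fits 5.71% to 7.56% of all genes passed, against 9.22% with all libraries.

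Profiles across the 16 libraries were compared by the root mean square difference of log2 CPM, each gene centred on its own mean, among 11129 genes with a mean of at least 5 CPM. *SLC7A5* and *SLC3A2* were each other's nearest gene, at 0.115, and *ATF4* was second nearest to *SLC3A2*, at 0.162. Without NAA40-KD (−dox) replicate 4, *SEPHS2*, an enzyme of selenocysteine synthesis, was nearest to both (0.0935 and 0.0837) and the 2 chains came second to each other at 0.113. For *SLC7A11*, *SERPINB8* (0.279), *NT5E* (0.318) and the serine synthesis enzyme *PSAT1* (0.347) were nearest, and without that library *SLC1A4* was, at 0.229. *PCK2*, mitochondrial phosphoenolpyruvate carboxykinase, was nearest to *SLC1A4* (0.320), followed by *TRIB3* (0.356) and *ACP7* (0.363).

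Among the remaining members, *SLC1A5* lay nearest to *NTMT1* (0.0858), to *SHMT2*, the mitochondrial serine hydroxymethyltransferase (0.0889), and to *RNF187* (0.106). *GPT2* (0.158), *PHGDH*, the first enzyme of serine synthesis (0.166), and *STING1* (0.167) were nearest to *SLC6A9*. *SLC7A1* had *TANGO6* (0.0930), *TOR1A* (0.118) and *RTN4* (0.120), and *SLC38A1* had *ATAD2* (0.116), *DSC2* (0.124) and *TTC26* (0.138). *SLC38A2* had *ELL2* (0.110), *SEMA3A* (0.117) and *FAM3C* (0.133), the only list of 3 that was the same 3 genes without replicate 4. These distances describe the 16 libraries, whose depth and group differences all genes share.

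Other amino acid transporters were called in both directions. Of 31 listed, 29 were in the matrix and 20 passed the filter on low counts. Without dox, 2 of the 20 were lower in the libraries labelled NAA40-KD and 0 higher, with a median of −0.09, while with dox 6 were higher and 2 lower, with a median of 0.08. Of all genes tested, 6.42% passed without dox and 24.5% with dox, and these shares are the background of the 2 lists that follow as well. *SLC36A1*, a proton-coupled carrier of small amino acids at the lysosome, was lower without dox (−0.83 ± 0.17, edgeR adjusted p = 0.0224) and stood at 0.22 with dox, which did not pass. *SLC7A2*, a cationic amino acid carrier like *SLC7A1*, ran from 31.4 to 44.7 CPM in SCR (−dox) and from 13.8 to 24.8 CPM in NAA40-KD (−dox), and with dox from 28.4 to 33.2 CPM in SCR (+dox) and from 43.1 to 51.1 CPM in NAA40-KD (+dox). It was lower without dox (−0.82 ± 0.21, edgeR adjusted p = 0.0499) and higher with dox (0.62 ± 0.10, edgeR adjusted p = 1.6e-04), and the difference between these values passed as an interaction (1.44 ± 0.23, edgeR adjusted p = 0.00128). Without dox, neither *SLC36A1* nor *SLC7A2* passed when any 1 library other than NAA40-KD (−dox) replicate 4 was left out, which left 0 of the 20. In those fits 1.64% to 3.18% of all genes passed. Without replicate 4 the values of *SLC36A1* and *SLC7A2* were −0.94 and −0.66.

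Of the light chains and carriers of large neutral amino acids, *SLC43A1* (−1.06) and *SLC7A8* (−0.98), the second another partner of *SLC3A2*, were lower with dox, and the glutamate carriers *SLC1A3* (0.92) and *SLC1A1* (0.65) were higher (log2 fold changes). Once NAA40-KD (−dox) replicate 4 was left out, 10 of the 20 passed without dox, 9 lower and 1 higher, with a median of −0.33, where 36.5% of all genes passed and 19.4% as lower. Dox in SCR changed 0 of the 20 by edgeR, with 3 at an unadjusted p under 0.05, against 1.95% of all genes. There, 11 of the 20 log2 fold changes were negative, with a median of −0.03.

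The *ATF4* pathway list held *ATF4*, kinases upstream of it and its known targets, 29 genes of which 27 were tested. Without dox 7 were lower and 2 higher in the libraries labelled NAA40-KD, with a median of −0.55, and with dox 20 were lower and 4 higher, with a median of −0.85. Over all genes tested, 3.54% passed as lower without dox and 13.7% with dox. The genes that rose without dox were *EIF2AK4*, a kinase upstream of *ATF4* (0.62), and *ALDH18A1*, an enzyme of proline synthesis (0.64), and with dox these rose (0.47 and 0.31) beside the kinases *EIF2AK1* (0.30) and *EIF2AK2* (0.56). *CHAC1*, which degrades glutathione (−1.86 without dox and −2.19 with dox), and *TRIB3*, a pseudokinase (−1.62 and −2.11), fell most in both. The serine synthesis enzymes *PSAT1* (−1.56 and −1.19) and *PSPH* (−1.04 and −0.67), the leucine sensor *SESN2* (−1.11 and −1.89) and the factor *ATF5* (−1.01 and −0.85) also fell in both comparisons. *ATF4* itself fell with dox (−0.73 ± 0.11, edgeR adjusted p = 7.7e-05) and stood at −0.55 without it (edgeR adjusted p = 0.0851), where it passed at −0.70 without NAA40-KD (−dox) replicate 4. Without that library, 19 of the list were lower and 5 higher, with a median of −0.73, where 36.5% of all genes passed. When any other library of the comparison without dox was left out, 3 to 5 were lower and 0 higher, with medians from −0.67 to −0.49. There, 1.64% to 3.18% of all genes passed. *CHAC1*, *PSAT1* and *PSPH* passed in all 8 fits that left out 1 library, *TRIB3* only without SCR (−dox) replicate 1 or NAA40-KD (−dox) replicate 4, *ATF5* only without replicate 4 of either group, and *SESN2* only without NAA40-KD (−dox) replicate 4. With dox, *CHAC1*, *TRIB3*, *PSAT1*, *PSPH*, *SESN2*, *ATF5* and *ATF4* passed in all 8 fits and in the fit over all 16 libraries, in which 16 of the list were lower and *EIF2AK4* alone was higher.

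Of 18 listed NRF2 target genes, 17 were tested without dox, where 1 was higher and 0 lower (median 0.16), and 16 with dox, where 1 was higher and 4 lower (median −0.17). The 5 of 16 that passed with dox stand beside 24.5% of all genes, and 0 passed with dox in the fit over all 16 libraries, so that each call with dox in this list was lost there. *FTL*, the ferritin light chain, rose without dox (1.19 ± 0.23, edgeR adjusted p = 0.0195) and stood at 0.04 with dox. Without NAA40-KD (−dox) replicate 4 the first value was 0.91. *OSGIN1* (−0.45), the peroxiredoxin *PRDX1* (−0.40) the export pump *ABCC2* (−0.36) and the thioredoxin reductase *TXNRD1* (−0.33) fell with dox, and *GCLM*, the regulatory subunit of the enzyme that starts glutathione synthesis, rose (0.36), although its groups overlapped and it passed only without SCR (+dox) replicate 1 (0.48) or replicate 3 (0.39) when single libraries were left out. *OSGIN1* did not pass without NAA40-KD (+dox) replicate 3, and *FTL* did not pass without dox when any 1 library of SCR (−dox) was left out. *AKR1C1*, at −0.62 with dox, did not pass and stood near 1 CPM in all groups. In the fit that left out NAA40-KD (−dox) replicate 4, 5 of 16 were higher and 0 lower without dox (median 0.17), beside 36.5% of all genes that passed in either direction. Dox in SCR changed 0 genes of the *ATF4* or the NRF2 list by edgeR. At an unadjusted p under 0.05 there were 5 of 27 and 1 of 17, against 1.95% of all genes. In the *ATF4* list 4 of 27 log2 fold changes were negative, with a median of 0.21. In the NRF2 list 6 of 17 were negative, with a median of 0.06. Over all genes 50.4% were negative, with a median of −0.0016.

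**Figure D5:**
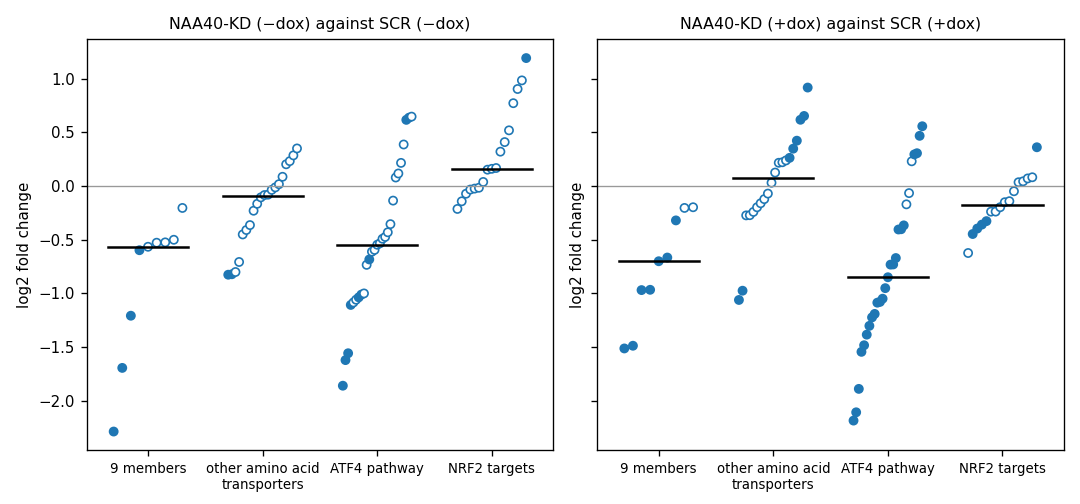
Log2 fold change (vertical axis) of each tested gene of 4 lists (horizontal axis) between the libraries labelled NAA40-KD and SCR, without dox on the left and with dox on the right, filled where the adjusted p was under 0.05, with the median of each list as a black bar. The 9 transporters and the *ATF4* list have medians of −0.57 and −0.55 without dox and −0.70 and −0.85 with dox. Those of the other transporters and the NRF2 targets are −0.09 and 0.16 without dox and 0.08 and −0.17 with dox, with single genes on both sides of 0. Without NAA40-KD (−dox) replicate 4, which is not drawn, the 4 medians without dox were −0.86, −0.73, −0.33 and 0.17 in the order named here.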

How the data were processed

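RNA from 16 libraries of HCT116 cells was analysed. Raw counts per gene, deposited by the authors with no normalization, came from STAR alignments by featureCounts. All 33937 genes of the matrix held a read in the 16 libraries, so genes without a read are absent from it. The submitters' processing notes name the builds hg38 and GRCm38, the methods mm10, and all 33937 identifiers were human. The labels name Direct-zol columns and standard Illumina libraries, the methods RNeasy columns and stranded NEBNext libraries. Columns of counts not matched to a sample numbered 0. Coordinates, exon lengths, overlaps and GC content came from GENCODE 29.

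From the deposited counts, edgeR 4.0.16 (R 4.3.3) gave TMM-normalized CPM and two-sided, robust quasi-likelihood tests. Genes with CPM above 1 in 4 or more libraries were tested and p-values adjusted over them (Benjamini-Hochberg), with each comparison fitted on its own 8 libraries and the interaction on 16. The scripts were tested on simulated data. Libraries of a group differed beyond sampling noise (chi-square per degree of freedom 1.74 to 140) and were counted singly. Totals of 11065606 to 13855486 leave large counting errors for *SLC1A4* and *SLC6A9*.

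The members and lists were chosen with earlier results of these data known. Named besides the members are up to 6 genes per list, those that passed without dox with the largest fold change, then those with the largest change with dox, and the 3 genes with the profile nearest to each member. *ATF4*, *EIF2AK1*, *EIF2AK2*, *EIF2AK4*, *ALDH18A1*, *TXNRD1* and *SEPHS2* were singled out after their values were seen, as were the nearest genes without replicate 4. Alternatives were DESeq2 1.42.0, limma-voom 3.58.1, upper-quartile factors, no filter, a fold threshold, a fit over 16 libraries, a block for the replicate number, the omission of single libraries and, added after seeing the data, a GC offset (lowess, span 0.3).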

Additional observations from a re-analysis of the deposited data

Results flagged for a closer look

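In 5 of the 40 sets of 4 libraries examined (9 members and *NAA40* in 4 groups), 1 library lay farther from its fellows than Dixon's 95% limit for 4 values, and chance flags about 1 in 20 such sets. Of the 5, 3 were in NAA40-KD (−dox) replicate 4: *SLC38A1* at 100.1 CPM, *SLC38A2* at 517 CPM and *SLC6A9* at 13.1 CPM. *SLC38A1* in SCR (−dox) replicate 3 (489 CPM, the others at 439.6 to 442 CPM) and *SLC7A5* in SCR (+dox) replicate 4 (1752 CPM, the others at 1339 to 1376 CPM) were the other two. *SLC38A1* was also the member whose difference between lines depended on the dox label, with an interaction of 1.02 on the log2 scale.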

How the results depend on the processing

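Of the members' log2 fold changes under the alternatives, 687 kept direction and side of the threshold, 26 passed only under the alternative, 51 no longer passed and 19 changed sign, and the cause was not tested. Without dox, 1 member (*SLC7A11*) passed with the replicate number as a block, so that *SLC1A4*, *SLC38A1* and *SLC7A1* did not, 9 with the GC offset and 2 to 8 when single libraries were left out, against 4. With dox, 2 passed the fold threshold, against 7, and the fit over all 16 libraries left 5 members, 17 of the *ATF4* list against 24, 0 of the NRF2 list against 5 and 966 of all genes against 3402. Between the NAA40-KD groups, 7 passed with the GC offset (44.1% of all genes) and 0 to 8 when single libraries were left out, against 3. For the interaction, 2 passed with DESeq2 (*SLC7A1* besides *SLC38A1*, 13.7% of all genes) and 3 with the GC offset (29% of all genes). When single libraries were left out 0 to 4 passed, against 1 in the main fit (9.22% of all genes). Between the NAA40-KD groups, *SLC3A2* gave 0.030 with limma-voom, 0.028 with the replicate block, 0.0064 with no filter and 0.21 with the GC offset (passing), *SLC38A2* gave 0.016 with limma-voom and 0.013 with the block, and *SLC7A5* gave 0.10 with the GC offset. Single libraries left out gave −0.16 to 0.25 for *SLC3A2*, −0.35 to 0.011 for *SLC38A2*, −0.33 to 0.12 for *SLC7A5* and −0.043 to 0.36 for *SLC1A5*. In SCR they gave −0.040 to 0.094 for *SLC38A1* and −0.017 to 0.13 for *SLC38A2*. In the interaction, *SLC1A5* gave 0.19 and *SLC6A9* 0.12 with the GC offset, and leave-one-out ranges were −0.22 to 0.18 and −0.27 to 0.13. Same-numbered libraries correlated from −0.51 to 0.30 in their deviations, so the numbers were not taken to pair samples. Between the NAA40-KD groups, replicates 2, 3 and 4 correlated highest with their own number (0.28, 0.13 and 0.30). Replicates 3 and 4 did so between the groups with dox (0.096 and 0.23). Elsewhere the own number was not the highest. The block moved the calls over all genes from 892 to 82 without dox and from 3402 to 4070 with dox. Between the NAA40-KD groups it moved them from 1414 to 777.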
